A study of Mus musculus with 12 samples.

Results

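The effect of Tet2 loss on gene expression was examined in cells whose Ep300 gene was intact. RNA of 3 Tet2KO libraries was set against that of 3 WT libraries, which are 6 of the 12 libraries of the series, and the comparison was read across all 13138 protein-coding genes that passed the filter on low counts, of 17842 genes tested in all. A further 1757 tested rows are pseudogenes, predicted genes, antigen receptor segments or near-identical copies of another gene. They were set apart and are described after the protein-coding genes. The libraries were made from LSK cells, a sorted bone marrow fraction without lineage markers and with Sca-1 and c-Kit, in which hematopoietic stem cells and early progenitors are found. Tet2KO cells came from Tet2-/- mice, which lack Tet2 from the germline and therefore in every tissue, and by the study's methods these mice also carried floxed Ep300 alleles (Ep300 fl/fl) without the Mx1-Cre transgene. WT cells came from Ep300 fl/fl mice that also lacked the transgene by those methods, whereas the series description names Mx1-Cre for all of its groups. Mice of both groups were 8 to 10 weeks old, and all received poly(I:C) 2 weeks before sorting. Poly(I:C) is an interferon-inducing RNA analog that switches on Mx1-Cre where it is present.

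TET2 is one of the TET enzymes, which oxidise 5-methylcytosine in DNA to 5-hydroxymethylcytosine and further products, a route by which methyl groups are removed from CpG sites. It is among the genes most often mutated in human clonal hematopoiesis, myelodysplastic syndromes and acute myeloid leukemia. In mouse bone marrow, loss of Tet2 is known for expanding stem and progenitor cells and for raising the output of myeloid cells. The acetyltransferase p300, encoded by Ep300, adds acetyl groups to histones at enhancers and promoters.

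The libraries differed in sex-linked RNA, and the groups were not balanced for it. Tet2KO replicate 1 held both Xist, a noncoding RNA made from the inactive X in female cells, at 3279 CPM, and RNA of Y-linked genes at 177 CPM. CPM is a gene's count scaled by the library's normalised total. Tet2KO replicate 2 held 304 CPM of Y-linked RNA and 4.12 CPM of Xist, and Tet2KO replicate 3 held 6665 CPM of Xist and no Y-linked RNA. The 3 WT libraries held Y-linked RNA at 257 to 276 CPM, with Xist no higher than 2.79 CPM. Total counts ran from 23354540 to 56210721 in Tet2KO and from 18838681 to 79573664 in WT, so that the shallowest library was WT replicate 3. On the first principal component of autosomal protein-coding genes (40.6% of the variance), the Tet2KO libraries lay at 14.8, 1.04 and 44.5 and the WT libraries at -25.8, -22.6 and -11.8. Tet2KO replicate 2, the library most like WT in its sex-linked RNA, was thus also the nearest to WT on this axis, and the part of sex in the results was not tested beyond the values given with them. No called gene lay on the X or Y chromosome (0 of 74). These held 444 and 4 of the 13138 protein-coding genes tested, of which 0.563% were called in all. This count does not bear on autosomal genes.

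Tet2 itself was lower in every Tet2KO library. Tet2 (ENSMUSG00000040943.11, chromosome 3, 133463679 to 133545139 of mm10) was at 56.6, 38.6 and 48.1 CPM in Tet2KO replicates 1, 2 and 3, against 136, 139 and 120 CPM in WT replicates 1, 2 and 3. The groups did not overlap, and the log2 fold change was -1.46 (SE 0.16, adjusted p = 7.4e-04, edgeR quasi-likelihood test). Gene-level counts do not show which exons the remaining Tet2 reads came from. Of the other TET enzymes, Tet1 was at 176, 182 and 117 CPM in Tet2KO and 163, 168 and 136 CPM in WT, and Tet3 was at 352, 332 and 314 CPM in Tet2KO and 340, 326 and 273 CPM in WT. Both overlapped between the groups and neither was called. Over the 24 tested genes of DNA methylation and its removal, Tet2 was the single call, and 8 members lay below all WT libraries and 1 above them, beside 12.4% and 8.18% of all protein-coding genes.

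Ep300 RNA was at 350, 346 and 313 CPM in Tet2KO and 307, 340 and 285 CPM in WT (log2 fold change of 0.11 with SE 0.11, adjusted p = 0.687). Its paralog Crebbp, the gene of CBP, was at 403, 401 and 348 CPM in Tet2KO and 372, 381 and 360 CPM in WT (log2 fold change 0.05). Both genes overlapped between the groups. Myb, a transcription factor of progenitor proliferation that binds p300, was at 727, 716 and 824 CPM in Tet2KO and 644, 694 and 755 CPM in WT (adjusted p = 0.665), and also overlapped. Among the markers of the sort gate, Kit ranged over 724 to 982 CPM in Tet2KO and 731 to 866 CPM in WT. Ly6a, which encodes Sca-1, ranged over 19.7 to 32.8 CPM in Tet2KO and 20.1 to 32.6 CPM in WT. The gate markers were therefore present in all 6 libraries at overlapping levels. Of the lineage markers, Cd3e, Cd8a and Ly6g did not pass the filter on low counts.

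Tet2 loss with p300 intact was accompanied by few changes called by edgeR. The number called depended on the test. The DESeq2 Wald test called more genes in both directions, with counts given in the closing section. At an adjusted p under 0.05 across all genes tested, 49 protein-coding genes were higher in Tet2KO (0.373% of those tested) and 25 were lower (0.19%), together 74 genes (0.563%). Of these, 35 were at least 2-fold higher (0.266%) and 14 at least 2-fold lower (0.107%). Over all 17842 genes tested, 86 were higher (0.482%) and 27 lower (0.151%), 113 in all (0.633%). At an unadjusted p under 0.05, 783 protein-coding genes were higher (5.96%) and 861 lower (6.55%), 1644 in all (12.5%). The median log2 fold change over protein-coding genes was -0.03. All 74 called genes had Tet2KO libraries that did not overlap with the WT libraries, a state shared by 8.18% (higher) and 12.4% (lower) of all protein-coding genes, so that Tet2KO replicate 2 lay outside the WT range for each of them. Among the genes called higher, replicate 2 was the Tet2KO library nearest to the WT mean for 32 of 49. Without Tet2KO replicate 1, WT replicate 1 or WT replicate 2 the higher calls numbered 13, 12 and 10 and the lower calls 6, 7 and 8, and without Tet2KO replicate 2 they numbered 103 and 51. With sex-linked RNA as a covariate, 30 of the 49 and 15 of the 25 were still called. The labels do not say whether the libraries of a group came from separate mice, whereas the study's methods give 3 independent biological replicates.

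**Figure D1:**
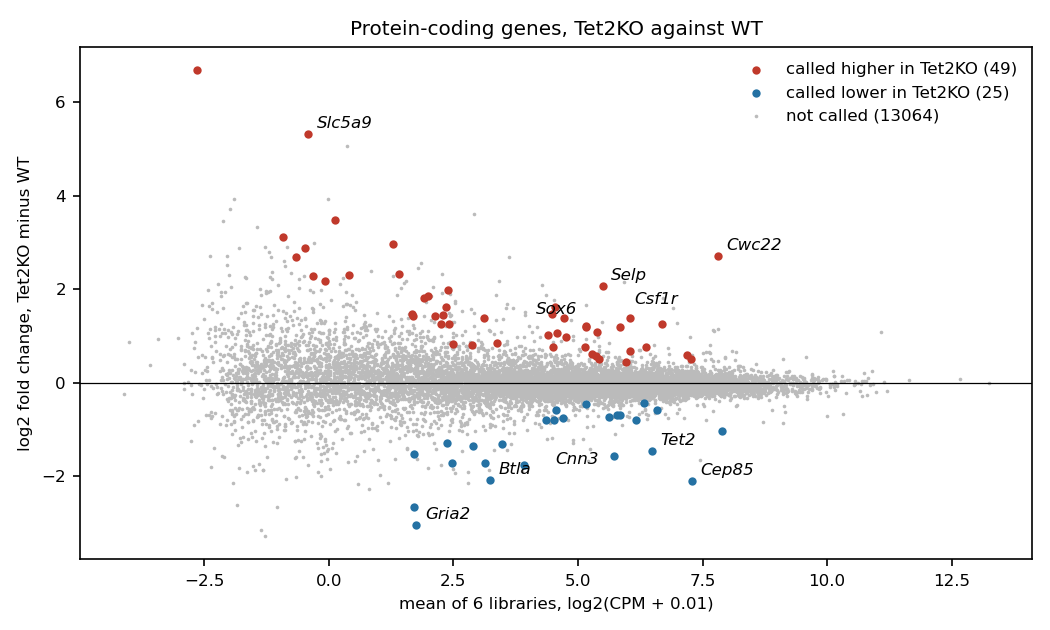
Each point is 1 of the 13138 protein-coding genes tested, with its mean over the 6 libraries on the horizontal axis (log2 of CPM plus 0.01) and its log2 fold change, Tet2KO minus WT, on the vertical axis. The 49 genes called higher in Tet2KO (red) and the 25 called lower (blue) are few beside the uncalled genes (grey), and several of the highest red points lie at low expression.

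A set of 14 genes, 9 higher and 5 lower, kept its call whichever of the 6 libraries was left out. The genes are Tmod4, Fhdc1, Etl4, Pld4, Fam102b, Sox6, Pcdh7, Zbtb16 and Sipa1l1 on the higher side, and Tet2, Cep85, Cnn3, Cisd2 and Btla on the lower side. All 14 were called with the sex covariate in the fit of 12 libraries. When the 6 libraries were fitted alone with that covariate, Tmod4, Fhdc1, Etl4, Sipa1l1 and Cisd2 were not called. Of the 14, Tet2, Tmod4, Fhdc1, Fam102b, Cnn3 and Cisd2 lie on chromosome 3, Etl4 on chromosome 2 and Cep85 on chromosome 4. Chromosomes 2, 3 and 4 held 18.8% of the protein-coding genes tested. Those on other chromosomes include the hematopoietic transcription factors Sox6 and Zbtb16. Every other called gene lost its call without at least 1 of the libraries. Sox6, a transcription factor that acts in erythroid maturation and globin silencing, was at 53.5, 55.2 and 41.2 CPM in Tet2KO, against 24.0, 21.2 and 19.8 CPM in WT (log2 fold change of 1.20 with SE 0.14, adjusted p = 0.00129). Zbtb16, which encodes the zinc finger repressor PLZF, was at 56.3, 45.4 and 68.5 CPM in Tet2KO, against 26.5, 27.4 and 25.7 CPM in WT (log2 fold change of 1.09 with SE 0.14, adjusted p = 0.00235). Each Tet2KO library held more than 1.5 times the highest WT value of either gene. Pcdh7, a protocadherin, was at 56.4, 48.5 and 43.3 CPM in Tet2KO and 23.7, 23.5 and 18.0 CPM in WT (log2 fold change 1.18). Fam102b, a gene of chromosome 3, was at 138, 171 and 125 CPM in Tet2KO and 61.3, 60.5 and 60.01 CPM in WT (log2 fold change 1.26), so the WT libraries were nearly level. Pld4, which encodes an endolysosomal exonuclease of nucleic acids, was at 27.8, 34.9 and 34.9 CPM in Tet2KO and 10.4, 11.1 and 14.0 CPM in WT (log2 fold change of 1.46 with SE 0.18, adjusted p = 0.00207). Fhdc1, which encodes a formin-family protein, was at 10.9, 7.18 and 6.78 CPM in Tet2KO and 1.82, 2.05 and 2.56 CPM in WT (log2 fold change 1.98).

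On the lower side, Cep85, which encodes a centrosomal protein, showed one of the clearest separations. It was at 52.1, 68.0 and 56.0 CPM in Tet2KO, against 250.1, 309 and 203 CPM in WT (log2 fold change of -2.11 with SE 0.22, adjusted p = 6.05e-04). Cnn3, an actin-binding calponin, was at 26.9, 26.5 and 26.7 CPM in Tet2KO and 66.9, 68.0 and 102 CPM in WT (log2 fold change of -1.56 with SE 0.18, adjusted p = 0.00129). For Cnn3 the SD of the 3 Tet2KO libraries was 0.208 CPM, whereas WT replicate 3 stood above the other WT libraries. Btla, an inhibitory receptor of lymphocytes, was at 4.05, 2.12 and 4.70 CPM in Tet2KO and 17.9, 16.6 and 11.3 CPM in WT (log2 fold change of -2.09 with SE 0.29, adjusted p = 0.0052). Cisd2, which encodes an iron-sulfur protein of the endoplasmic reticulum and outer mitochondrial membrane, was at 40.8, 45.3 and 45.9 CPM in Tet2KO and 74.3, 68.2 and 71.3 CPM in WT (log2 fold change of -0.70 with SE 0.08, adjusted p = 0.00129).

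**Figure D2:**
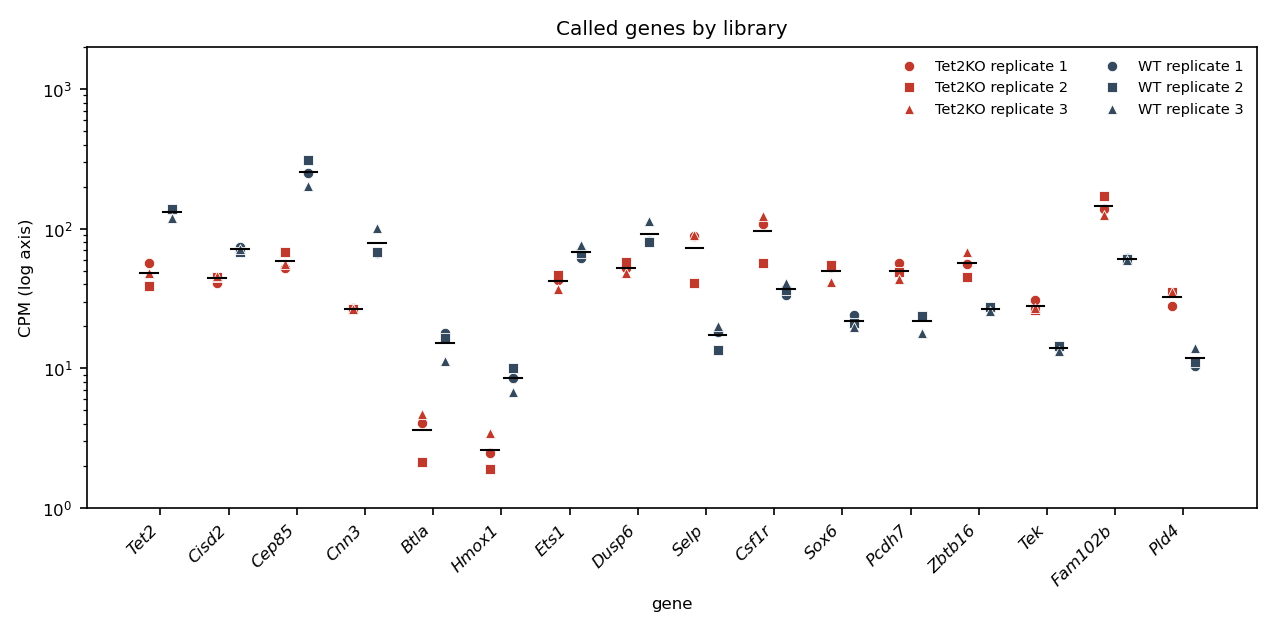
CPM (log axis) of 16 called genes in each library, with the 3 Tet2KO libraries (red) left of the 3 WT libraries (dark) for each gene, marker shapes for replicates 1, 2 and 3, and black lines at the group means. Tet2, Cep85 and Cnn3 lie lower in all Tet2KO libraries and Sox6, Pcdh7 and Fam102b higher, and for Selp and Csf1r Tet2KO replicate 2 (square) lies nearest to WT.

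Csf1r, Selp, Tek and Clec1a, which encode cell surface proteins, were among the 49 genes called higher. Csf1r, the receptor of the macrophage colony-stimulating factor, was at 107, 57.1 and 123 CPM in Tet2KO, against 33.4, 36.5 and 40.8 CPM in WT (log2 fold change of 1.38 with SE 0.25, adjusted p = 0.0259). Selp, which encodes P-selectin of platelets and endothelium, was at 88.0, 40.9 and 89.3 CPM in Tet2KO, against 18.3, 13.6 and 20.2 CPM in WT (log2 fold change of 2.07 with SE 0.41, adjusted p = 0.0402). In both genes Tet2KO replicate 2 was the nearest to WT while still above all WT libraries. Tek, the angiopoietin receptor found on endothelium and long-term stem cells, was at 30.8, 26.3 and 27.2 CPM in Tet2KO and 14.0, 14.6 and 13.3 CPM in WT (log2 fold change 1.01, adjusted p = 0.0402). Clec1a, a C-type lectin receptor, was at 7.56, 5.93 and 6.38 CPM in Tet2KO and 2.56, 2.43 and 3.46 CPM in WT (log2 fold change 1.25). All 4 lost the call without Tet2KO replicate 1, WT replicate 1 or WT replicate 2, Csf1r, Selp and Tek also without Tet2KO replicate 3, and Selp and Tek also without WT replicate 3. The highest adjusted p in these fits, in each case without WT replicate 1, was 0.163 for Csf1r, 0.205 for Selp and for Tek, and 0.143 for Clec1a. With the sex covariate Csf1r and Selp were called (adjusted p = 0.0216 and 0.0055) and Tek was not (adjusted p = 0.0903). Of 35 tested progenitor cytokine receptors Csf1r was called higher and 0 lower (median log2 fold change 0.03). Of 33 homing and niche adhesion receptors Selp was called higher and 0 lower (median -0.02). The shares called over all protein-coding genes were 0.373% higher and 0.19% lower.

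Further genes called higher act in immunity, signalling and metabolism. Tnfsf13, the B cell survival ligand APRIL, was at 11.2, 9.74 and 16.6 CPM in Tet2KO and 4.36, 4.32 and 5.69 CPM in WT (log2 fold change 1.39). Tlr1, a Toll-like receptor for bacterial lipopeptides, was at 5.99, 3.87 and 2.92 CPM in Tet2KO and 0.427, 0.304 and 1.06 CPM in WT. Gatm, the first enzyme of creatine synthesis, was at 71.2, 58.5 and 109 CPM in Tet2KO and 33.1, 31.6 and 40.4 CPM in WT (log2 fold change 1.18). Each of these genes lay higher in all Tet2KO libraries, although Tlr1 was not called with the sex covariate (adjusted p = 0.0556). Arhgef28, a guanine nucleotide exchange factor, was at 43.2, 38.1 and 22.8 CPM in Tet2KO and 8.14, 7.99 and 18.5 CPM in WT (log2 fold change 1.62), with Tet2KO replicate 3 close to WT replicate 3. Mmp28, a secreted matrix metalloproteinase, was at 9.60, 6.39 and 6.47 CPM in Tet2KO and 3.31, 3.29 and 2.84 CPM in WT, and was not called with the sex covariate (adjusted p = 0.0562). Without WT replicate 1 or 2 none of Tnfsf13, Tlr1, Gatm, Arhgef28 and Mmp28 was called, and without Tet2KO replicate 1 Gatm alone of these was, with adjusted p from 0.106 (Gatm) to 0.215 (Tlr1 and Arhgef28) at the highest. Ifitm7 (log2 fold change 1.62) and Naip6 (log2 fold change 1.39) were also called higher, and both belong to families of similar genes between which reads can be divided, so their values are uncertain. Of the 49 genes called higher, 18 averaged under 5 CPM.

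The 25 genes called lower included Ets1, Bank1, Tnfrsf13c, Dusp6 and Apcdd1. Ets1, a transcription factor of lymphoid cells, was at 43.2, 46.6 and 37.0 CPM in Tet2KO, against 61.9, 67.4 and 76.2 CPM in WT (log2 fold change of -0.69 with SE 0.12, adjusted p = 0.0243). Bank1, a scaffold protein of B cell receptor signalling, was at 0.882, 0.865 and 0.93 CPM in Tet2KO and 5.91, 6.20 and 4.80 CPM in WT (log2 fold change -2.66). Bank1 was the single call among 19 tested markers of mature B and plasma cells, whose median log2 fold change was -0.08 and whose sums overlapped (240 to 335 CPM in Tet2KO, 271 to 300 CPM in WT). Tnfrsf13c, the receptor of the B cell survival factor BAFF, was at 3.32, 3.17 and 2.57 CPM in Tet2KO and 8.51, 8.77 and 4.80 CPM in WT (log2 fold change -1.29). None of the 3 genes overlapped between the groups. Dusp6, the phosphatase that limits ERK signalling, was at 52.6, 57.5 and 47.8 CPM in Tet2KO and 81.4, 79.9 and 113 CPM in WT (log2 fold change -0.79, adjusted p = 0.0167). It was the single call among 29 tested RAS and MAPK feedback genes, of which 7 lay below all WT libraries and 2 above, beside 12.4% and 8.18% of all protein-coding genes and 0.19% called lower. Apcdd1, an inhibitor of Wnt signalling, was at 3.24, 5.04 and 4.21 CPM in Tet2KO and 10.8, 8.13 and 13.1 CPM in WT (log2 fold change -1.35). Ets1 and Apcdd1 kept the call only without Tet2KO replicate 2, Tnfrsf13c only without WT replicate 3, and Dusp6 lost it without Tet2KO replicate 1 or 3. Their adjusted p reached 0.111 for Ets1, 0.198 for Apcdd1, 0.222 for Tnfrsf13c and 0.0844 for Dusp6. With the sex covariate Apcdd1 and Tnfrsf13c were not called (adjusted p = 0.0918 and 0.0908).

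Hmox1, the heme-degrading enzyme, was at 2.46, 1.90 and 3.46 CPM in Tet2KO and 8.56, 10.1 and 6.80 CPM in WT (log2 fold change -1.73, adjusted p = 0.0335). Ddx4, the germ cell RNA helicase, was at 3.77, 5.80 and 2.48 CPM in Tet2KO and 11.7, 14.0 and 14.6 CPM in WT (log2 fold change -1.73, adjusted p = 0.00889). It was the single call among the 6 tested genes of a list of germline genes with methylated promoters, whose median log2 fold change was -0.29. Of all protein-coding genes, 0.19% were called lower. Slc16a11, a monocarboxylate transporter family member, was at 7.53, 8.53 and 4.34 CPM in Tet2KO and 23.1, 21.9 and 24.9 CPM in WT (log2 fold change -1.76). All 3 genes were lower in every Tet2KO library. Each lost its call without Tet2KO replicate 1 or WT replicate 2, Hmox1 and Slc16a11 also without WT replicate 1, and Hmox1 also without Tet2KO replicate 2, with adjusted p up to 0.162 for Hmox1, 0.0652 for Ddx4 and 0.0705 for Slc16a11. With the sex covariate Hmox1 was not called (adjusted p = 0.0934).

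Early lymphoid and myeloid genes lay to opposite sides of the median, mostly without calls. Lymphoid priming in LSK cells is carried by multipotent progenitors that start to express lymphoid receptors and recombination enzymes. In the list of lymphoid genes (priming factors and early lineage genes), 40 members were tested. None was called higher, 1 (Ets1) was called lower, and 39 did not pass the test, beside 0.373% higher and 0.19% lower over all protein-coding genes. The median log2 fold change of the list was -0.57, beside -0.03 over all protein-coding genes. In this list 22 of 40 members lay below all WT libraries and 0 above them, beside 12.4% and 8.18% of all protein-coding genes. Their summed level was 4618, 4245 and 3634 CPM in Tet2KO and 4958, 5025 and 5550 CPM in WT. In bulk RNA, fewer cells of a type and less RNA per cell cannot be told apart.

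Dntt, the terminal deoxynucleotidyl transferase of antigen receptor rearrangement, was at 450.2, 522 and 194.5 CPM in Tet2KO and 585, 642 and 911 CPM in WT (log2 fold change of -0.87 with SE 0.39, adjusted p = 0.377). Flt3, the cytokine receptor of lymphoid-primed progenitors, was at 521, 525 and 290.2 CPM in Tet2KO and 676, 703 and 687 CPM in WT (log2 fold change -0.63, adjusted p = 0.167). In both genes Tet2KO replicate 3, which held Xist and no Y-linked RNA, was the lowest library. Chosen after their values were seen, Rag1, a subunit of the recombinase, was at 28.0, 35.9 and 10.1 CPM in Tet2KO and 47.6, 43.3 and 53.2 CPM in WT (adjusted p = 0.385), and Pax5, the B cell commitment factor, was at 7.68, 6.50 and 4.34 CPM in Tet2KO and 32.5, 19.8 and 16.9 CPM in WT (adjusted p = 0.315). Notch1 was at 475, 423 and 289.8 CPM in Tet2KO and 472, 523 and 552 CPM in WT (log2 fold change -0.38, adjusted p = 0.406). Its groups overlapped through replicate 1.

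The list of granulocyte and monocyte progenitor genes had 45 tested members. Of these Csf1r was called higher, 0 were called lower and 44 did not pass the test, beside 0.373% higher and 0.19% lower over all protein-coding genes. The median log2 fold change of the list was 0.51. In it 12 of 45 members lay above all WT libraries and 0 below, beside 8.18% and 12.4% of all protein-coding genes. The summed level was 6745, 5306 and 10100 CPM in Tet2KO and 4204, 4167 and 5299 CPM in WT, so that Tet2KO replicate 2 hardly exceeded WT replicate 3. Among members chosen after their values were seen, Mpo, the granule enzyme myeloperoxidase, was at 2631, 2007 and 4153 CPM in Tet2KO and 1246, 1246 and 1680 CPM in WT (log2 fold change 1.07, adjusted p = 0.114). F13a1, the coagulation factor XIII subunit made by monocytic cells and megakaryocytes, was at 144, 74.2 and 271 CPM in Tet2KO and 36.1, 34.99 and 68.0 CPM in WT (log2 fold change 1.82, adjusted p = 0.138). Tet2KO replicate 3 was the highest library for both. The mature neutrophil list summed to 201 to 241 CPM in Tet2KO and 190 to 220 CPM in WT with 0 calls among 11 tested members, and Ly6g of that list did not pass the filter. The macrophage list summed to 264 to 309 CPM in Tet2KO and 255 to 263 CPM in WT, with Hmox1 called lower among its 19 tested members. Its median log2 fold change was -0.45, with 4 members below all WT libraries and 1 above, so the median and the sum differ in sign. The part of mature cells in the myeloid values was not tested.

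Of the 30 tested megakaryocyte and platelet genes, Selp and Ptgs1 were called higher, none was called lower and 28 did not pass the test. Over all protein-coding genes, 0.373% were called higher and 0.19% lower. Ptgs1, the cyclooxygenase that makes thromboxane precursors in platelets, was at 54.3, 47.2 and 45.2 CPM in Tet2KO and 33.7, 30.6 and 34.02 CPM in WT (log2 fold change of 0.58 with SE 0.11, adjusted p = 0.0398). Ptgs1 kept its call only without Tet2KO replicate 3, reached an adjusted p of up to 0.196 without another library, and was not called with the sex covariate (adjusted p = 0.082). The median log2 fold change of the list was 0.48, with 12 of 30 members above all WT libraries and 0 below, beside the same 8.18% and 12.4%. Erythroid genes had 0 calls among 28 tested members and a median of 0.16. The 5 tested Hoxb genes, homeobox factors of stem cells, had a median of 0.60 with 4 above all WT libraries (8.18% of all protein-coding genes) and 0 called. Hoxb4 was at 17.8, 15.5 and 17.9 CPM in Tet2KO and 12.8, 15.3 and 10.2 CPM in WT (adjusted p = 0.341).

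**Figure D3:**
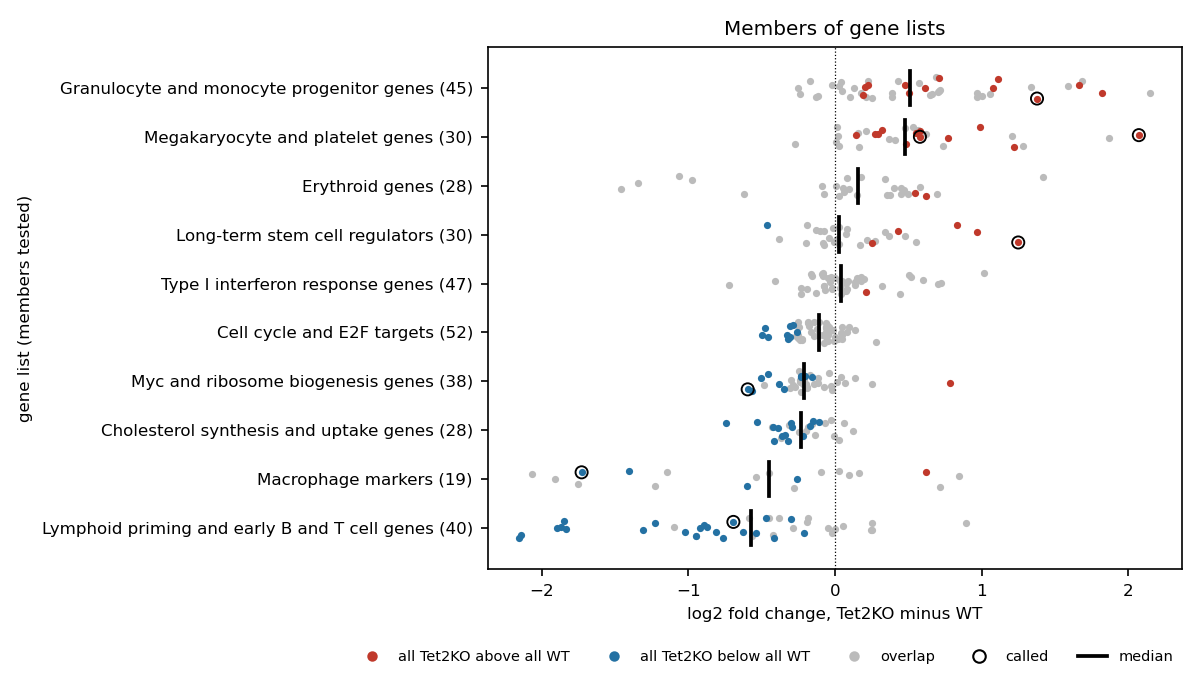
Log2 fold change, Tet2KO minus WT, of every tested member of 10 gene lists, 1 list per line with its number of tested members. Red and blue points are members whose Tet2KO libraries all lie above or all below the WT libraries, grey points overlap, circles mark calls, and bars mark medians, which run from 0.51 for the granulocyte and monocyte list to -0.57 for the lymphoid list.

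The imprinted long noncoding RNAs Meg3 and Rian, which are transcribed from the maternal copy of the Dlk1-Dio3 region on chromosome 12, were both higher. Rian was at 7.67, 4.33 and 4.70 CPM in Tet2KO, against 1.14, 0.968 and 1.39 CPM in WT (log2 fold change of 2.27 with SE 0.32, adjusted p = 0.00516). Meg3 was at 21.02, 10.1 and 8.42 CPM in Tet2KO, against 2.96, 3.02 and 3.07 CPM in WT (log2 fold change of 2.13 with SE 0.39, adjusted p = 0.0306). For both RNAs Tet2KO replicate 1 was the highest library, and every Tet2KO library exceeded every WT library. Without WT replicate 1 or 2 neither was called, nor was Meg3 without Tet2KO replicate 1 or WT replicate 3, with adjusted p up to 0.0523 for Rian and 0.174 for Meg3. They were 2 of the 7 genes of other RNA classes called higher (0.246% of 2848 tested, beside 2 or 0.0702% called lower, 9 or 0.316% in all), and the other 25 tested imprinted genes were not called.

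Interferon, cell cycle, cholesterol and ribosome biogenesis genes had no more than 1 call per list, beside 0.563% of all protein-coding genes called. Of the 47 tested type I interferon response genes, 0 were called and the median log2 fold change was 0.04. This list bears on poly(I:C), which both groups received. Of the 52 tested cell cycle genes 0 were called (median -0.11), and Mki67, a marker of cycling cells, was at 1011, 1130 and 1415 CPM in Tet2KO and 950.4, 1086 and 1197 CPM in WT. The 28 tested cholesterol synthesis genes had 0 calls and a median of -0.23, and 14 of them lay below all WT libraries and 0 above, beside 12.4% and 8.18% of all protein-coding genes. Of that list, Srebf2, the transcription factor of the pathway, was at 244, 232 and 182 CPM in Tet2KO and 288, 265 and 255 CPM in WT (log2 fold change -0.30, adjusted p = 0.377). Polr1b, a subunit of RNA polymerase I, was called lower among 38 Myc and ribosome biogenesis genes (median -0.21), at 68.8, 89.0 and 72.8 CPM in Tet2KO and 126, 119 and 103 CPM in WT, and not called with the sex covariate (adjusted p = 0.0801). DNA repair genes had 0 calls among 43 tested members, 12 of which lay below all WT libraries and 0 above, beside the same shares of 12.4% and 8.18%.

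The share of genes called differed between chromosomes, and no test of that difference was run. On chromosome 3, which carries Tet2, 12 of 624 tested protein-coding genes were called (1.92%), beside 62 of 12514 elsewhere (0.495%). Within 5 Mb of the start of Tet2, 5 of 44 tested genes were called (11.4%), all of them lower. They are Rpl34, Tet2, Cisd2, Bank1 and Emcn, which start within 3.9 Mb of Tet2. The count thus includes the knocked-out gene, and Rpl34 was not called when its copy rows were added to it, as described below. Emcn, the sialomucin endomucin of endothelium and stem cells, was at 8.48, 6.22 and 4.34 CPM in Tet2KO and 16.7, 17.6 and 13.4 CPM in WT (log2 fold change of -1.32 with SE 0.21, adjusted p = 0.0127). Between 5 and 15 Mb from Tet2, 2 of 59 were called, Cnn3 (lower) and Abca4 (higher), and from 15 to 50 Mb 4 of 341 were called (1.17%). Chromosomes 2, 3 and 4 together held 31 of the 74 called genes (41.9%) and 18.8% of the genes tested. On chromosome 2, 11 of 1032 were called (1.07%), and on chromosome 4, 8 of 818 (0.978%), against 43 of 10664 (0.403%) on all other chromosomes. On chromosome 4, Cep85 and Pafah2, which encodes a platelet-activating factor hydrolase, start at 134.1 and 134.4 Mb and were called in opposite directions. Pafah2 was at 87.1, 75.7 and 81.5 CPM in Tet2KO and 54.1, 50.8 and 49.0 CPM in WT (log2 fold change 0.67, adjusted p = 0.0185). Emcn was not called without WT replicate 1 or 2, nor Bank1 without these or Tet2KO replicate 1, nor Rpl34 without Tet2KO replicate 1 or WT replicate 1, with adjusted p no higher than 0.0844.

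**Figure D4:**
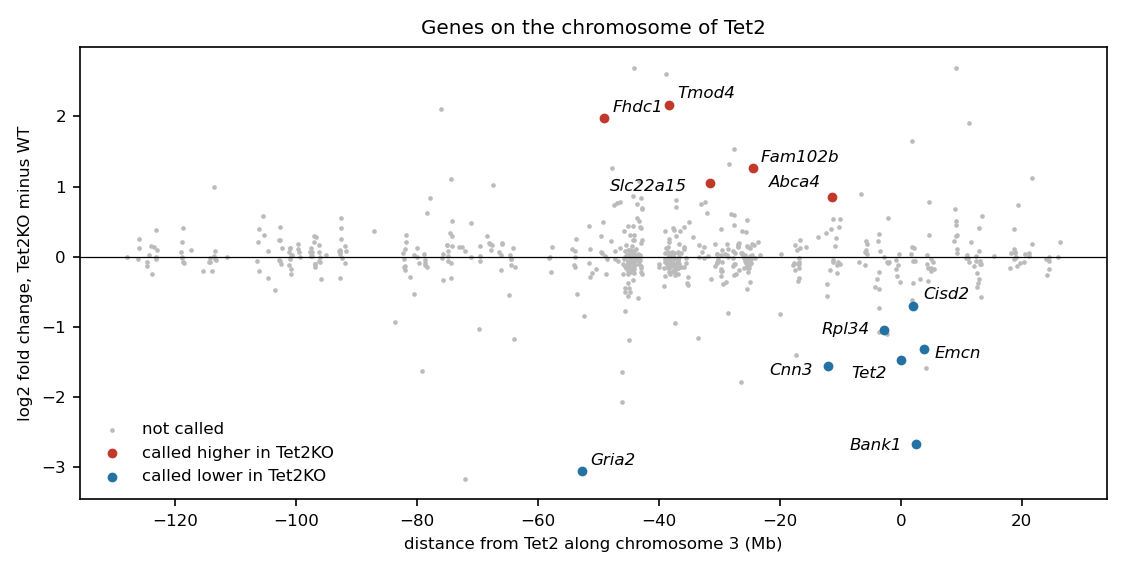
Each point is a tested protein-coding gene of chromosome 3, with its distance from the start of Tet2 in Mb on the horizontal axis and its log2 fold change, Tet2KO minus WT, on the vertical axis. The 5 called genes within 5 Mb of Tet2 (Tet2 included) are all lower in Tet2KO (blue), and farther away called genes lie on both sides. Rpl34, 1 of the 5, was not called when its copy rows were added to it.

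Of the 1757 rows set apart, 30 were called higher (1.71%) and 0 lower. Each of the 30 has a partner gene in the annotation with which its transcript shares stretches of 31 bases, and there are 22 distinct partners. The clearest case is Rpl34, a protein of the large ribosomal subunit, and its processed pseudogene Rpl34-ps1. Rpl34 is on chromosome 3 (chr3:130726831-130730398, minus strand, mm10) and Rpl34-ps1 on chromosome 6 (chr6:71124610-71124963, plus strand), both in mm10. They match at 351 of 353 coding bases (99.4%). The first 150 coding bases, a stretch with 1 difference, are shown from Gencode vM21 transcripts with the differing base in capitals.
Rpl34: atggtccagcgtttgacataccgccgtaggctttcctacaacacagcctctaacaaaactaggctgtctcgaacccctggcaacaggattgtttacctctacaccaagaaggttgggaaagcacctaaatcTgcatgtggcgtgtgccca
Rpl34-ps1: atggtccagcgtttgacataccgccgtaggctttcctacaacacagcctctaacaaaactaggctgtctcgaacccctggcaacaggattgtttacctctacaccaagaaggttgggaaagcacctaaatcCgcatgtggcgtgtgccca

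Rpl34-ps1 was at 151, 152 and 162 CPM in Tet2KO, against 0.59, 0.802 and 1.62 CPM in WT (log2 fold change of 7.51 with SE 0.26, adjusted p = 6.3e-09). Rpl34 was at 148, 159 and 160 CPM in Tet2KO, against 336, 245 and 382 CPM in WT, and was called lower (log2 fold change -1.04, adjusted p = 0.00889). The sum of both rows was 300, 311 and 322 CPM in Tet2KO and 337, 246 and 384 CPM in WT, a ratio of 0.964. When copy rows were added to their partner genes, an alternative chosen after seeing the data, the log2 fold change of Rpl34 was -0.05 and it was no longer called (adjusted p = 0.927).

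A second pair is Tpm3, a tropomyosin of chromosome 3 (chr3:90072649-90100902, plus strand), and Tpm3-rs7 of chromosome 14 (chr14:113314608-113316754, plus strand) in mm10, which match at 741 of 744 coding bases (99.6%). All 3 differences lie in the first 150 bases, printed with the differing bases in capitals.
Tpm3: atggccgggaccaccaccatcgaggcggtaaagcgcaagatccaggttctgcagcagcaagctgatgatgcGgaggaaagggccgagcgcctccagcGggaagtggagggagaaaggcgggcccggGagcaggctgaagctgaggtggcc
Tpm3-rs7: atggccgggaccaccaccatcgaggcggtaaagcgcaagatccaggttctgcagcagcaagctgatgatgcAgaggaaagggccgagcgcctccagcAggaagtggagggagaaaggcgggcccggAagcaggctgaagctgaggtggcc

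Tpm3-rs7 was at 159, 131 and 121 CPM in Tet2KO, against 3.88, 4.12 and 4.13 CPM in WT. Tpm3 itself was at 319, 424 and 398 CPM in Tet2KO and 558, 531 and 623 CPM in WT (log2 fold change -0.59, adjusted p = 0.0809), and the sum of the rows had a ratio of 0.901. Pcna-ps2, a copy of the replication clamp gene Pcna, was at 39.5, 38.2 and 73.6 CPM in Tet2KO and 1.65, 1.11 and 2.79 CPM in WT, with a ratio of 0.863 for the sum with Pcna. Pcna was at 201, 286 and 241 CPM in Tet2KO and 334, 315 and 365 CPM in WT (adjusted p = 0.167). In these pairs the copy was called higher in Tet2KO, and each Tet2KO value of the partner was below each WT value.

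Of the 30 pairs, 17 summed to a ratio between 0.8 and 1.25, 5 to a lower ratio and 8 to a higher one. Among the 5, Gm6594, Gm10182 and Gm10282 share the partner Hmgn2, at ratios of 0.56, 0.79 and 0.586. The others were Gm10093 with Hdac1 (0.727) and Rpl34-ps2 with Rpl34 (0.486), a sum that leaves out Rpl34-ps1. Where the copy is far below its partner, the ratio follows the partner alone and says nothing of the copy. In Tet2KO, for example, Gm13767 averaged 1.6 CPM beside Ptprj at 111.8 CPM, and Gm3650 1.44 CPM beside Spg11 at 66.2 CPM. Among the 8, Hist1h2al, annotated as a processed pseudogene of an H2A histone on chromosome 13, was at 178, 130 and 169 CPM in Tet2KO, against 0.176, 0.332 and 0.446 CPM in WT. Its sum with Hist2h2aa1 of chromosome 3 was 563, 612 and 747 CPM in Tet2KO and 289, 228 and 631 CPM in WT, a ratio of 1.67, and the groups overlapped through WT replicate 3. Hist2h2aa1 was itself set apart as a near-identical copy of another gene. Cwc22, a splicing factor of chromosome 2, was called higher at 364, 101 and 702 CPM in Tet2KO, against 64.7, 56.8 and 56.5 CPM in WT (log2 fold change of 2.71 with SE 0.48, adjusted p = 0.0245), and 6 predicted copies of it were called higher too. The sum of Cwc22 with any 1 of those copies had a ratio of 6.75, so 6 of the 8 higher ratios share this 1 partner. The Tet2KO libraries differed among themselves by several fold for Cwc22, and it was not called with the sex covariate (adjusted p = 0.0903). Its reads can be divided among its copies, so its level is uncertain.

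**Figure D5:**
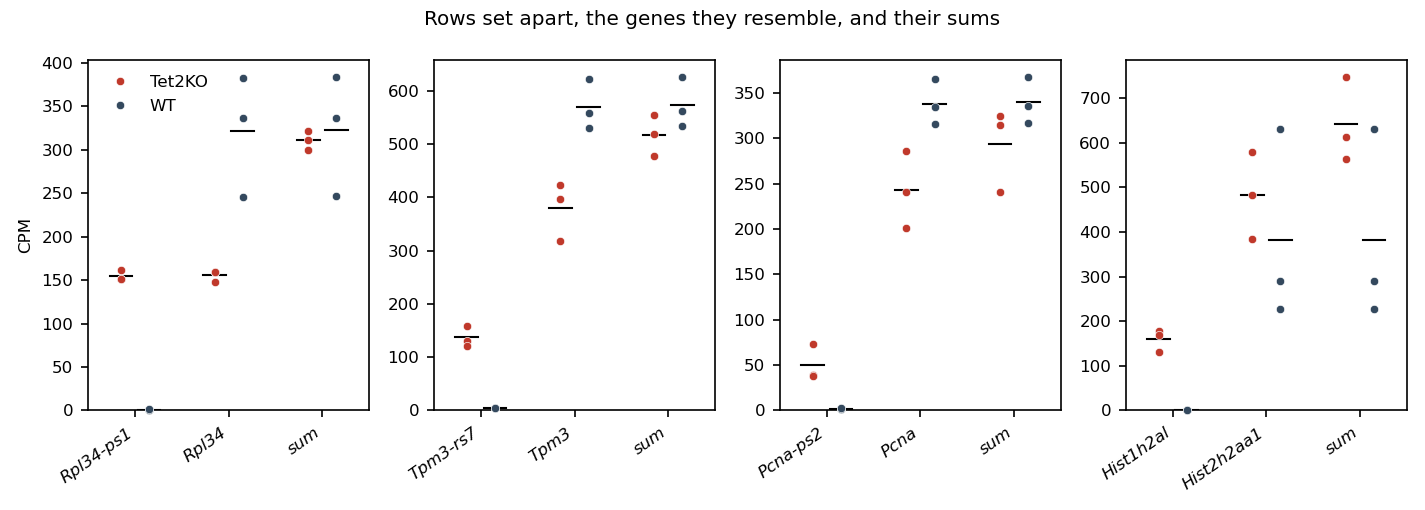
CPM of 4 rows set apart, of the gene each resembles, and of their sum, with 3 Tet2KO libraries (red) left of 3 WT libraries (dark) and black lines at the means. Rpl34-ps1 and Rpl34 sum to similar levels in both groups (ratio 0.964). The sums of Hist1h2al and Hist2h2aa1 have a ratio of 1.67 and overlap between the groups.

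The same change of label was also compared on the other Ep300 background, in 6 libraries that share none with the comparison above. There 3 libraries labelled p300KO_Tet2KO were set against 3 labelled p300KO, which carry Ep300 fl/fl with Mx1-Cre. Replicates 1 and 3 of p300KO_Tet2KO and replicate 3 of p300KO held Xist at 5776 CPM or more and under 0.1 CPM of Y-linked RNA, so sex-linked RNA was not balanced there either. Tet2 RNA in the libraries labelled p300KO_Tet2KO was at 129, 101 and 145 CPM, against 139, 181 and 168 CPM in libraries labelled p300KO (a log2 fold change of -0.38 with adjusted p = 0.421), so the Tet2 level does not follow that label as it does in Tet2KO. Of the 49 genes called higher in Tet2KO, 17 were also called higher there (34.7%, beside 0.282% of all protein-coding genes), 43 had the same sign, and 34 did not overlap between the groups in that direction (beside 7.5% of all). Of the 25 called lower, 4 were called lower there (16%, beside 0.244%), 21 had the same sign, and 16 did not overlap in that direction (beside 7.25% of all). The 4 were Cep85, Cnn3, Cisd2 and Rpl34, the last of which was not called in Tet2KO against WT once its copy rows were added. Of these 21 genes called in both comparisons, 15 lie on chromosomes 2, 3 and 4 (71.4%), and the remaining 6 include Fxyd1, Fzd8, Sox6, Pcdh7 and Zbtb16. Of the 30 rows set apart that were called, 20 were called there in the same direction. Over all genes tested, 62 were called higher there (0.347%) and 38 lower (0.213%). Rpl34-ps1 was at 132, 194 and 166 CPM in libraries labelled p300KO_Tet2KO, against 0.774, 0.781 and 0.855 CPM in p300KO.

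In that comparison Csf1r had a log2 fold change of -0.16 (adjusted p = 0.91) and Pld4 one of -0.17 (adjusted p = 0.839), and neither was called. The median log2 fold change there was -0.28 for the granulocyte and monocyte list, -0.29 for the megakaryocyte list and -0.53 for the lymphoid list, beside 0.51, 0.48 and -0.57 for Tet2KO against WT, and the difference between these medians was not tested. The test of the difference between both effects called 0 protein-coding genes by edgeR and 984 at an unadjusted p under 0.05 (7.49%), with 0 calls by limma-voom and 37 by the DESeq2 Wald test. For Pld4 the difference of effects was 1.64 (SE 0.26, unadjusted p = 2.88e-05, adjusted p = 0.384). For Tet2 itself it was -1.08 (SE 0.22, adjusted p = 0.491). No gene was therefore shown by edgeR to respond differently on the 2 backgrounds.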

How the data were processed

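RNA was sequenced from sorted mouse LSK cells, and 6 of the 12 libraries, 3 Tet2KO and 3 WT, enter the comparison described. The authors aligned reads to mm10 with spike-in sequences by STAR 2.6.0c and deposited RSEM 1.3.0 expected counts per gene, without normalization. RSEM divides reads that match several genes, which affects genes with near-identical copies. The study's methods also describe a correction by spike-in RNA, which was not applied because the table holds 0 spike-in rows. Expected counts were rounded. Of 46517 rows, 46005 matched Gencode vM21, and 17842 passed filterByExpr of edgeR 4.0.16.

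All 12 libraries were scaled by TMM and fitted with edgeR quasi-likelihood models (R 4.3.3), 1 mean per group. Tests were two-sided, and calls were made where the Benjamini-Hochberg adjusted p over all genes tested was under 0.05. SE is the log2 fold change over the square root of F. P-values weigh the difference between groups against the spread of libraries within groups, estimated over all 12 libraries. Precision is limited by 3 libraries per group. Rows were set apart as pseudogenes, predicted or copied symbols, antigen receptor segments, or proteins sharing 95% of their 8-letter words with another gene.

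The genes and lists described were chosen with earlier results of these data known. Genes named are the TET genes, Ep300, Crebbp, Myb, Dntt and Notch1, the 15 highest and 15 lowest fold changes among called genes of at least 5 CPM without overlap, up to 4 called members of each list or its 2 most expressed, called genes within 5 Mb of Tet2, the 6 largest changes among rows set apart, and the 5 smallest p-values of the difference of effects. Others were chosen after their values were seen. Some genes that were analysed are not reported here. Alternatives used limma 3.58.1 and DESeq2 1.42.0, other filters, samples and covariates. Models were tested on simulated data. Figures used Python 3.11.15 and matplotlib 3.10.9.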

Additional observations from a re-analysis of the deposited data

Results flagged for a closer look

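In 3 named genes all Tet2KO libraries lay above all WT libraries while all libraries labelled p300KO_Tet2KO lay below all p300KO libraries. Ccl9, a chemokine, had a log2 fold change of 0.71 between Tet2KO and WT, at 118, 67.8 and 97.9 CPM in Tet2KO and 55.5, 54.3 and 64.2 CPM in WT, and was at 43.7, 41.9 and 45.6 CPM in libraries labelled p300KO_Tet2KO, against 61.2, 65.6 and 76.7 CPM in p300KO. Hist1h2bq, an H2B histone of a family of near-identical genes, had a log2 fold change of 0.72 between Tet2KO and WT, at 17.6, 19.4 and 21.5 CPM in Tet2KO and 9.38, 12.1 and 14.4 CPM in WT, and was at 11.9, 18.1 and 16.8 CPM in libraries labelled p300KO_Tet2KO, against 23.5, 32.1 and 28.3 CPM in p300KO. Hvcn1, a proton channel, had a log2 fold change of 0.58 between Tet2KO and WT, at 35.5, 26.0 and 34.9 CPM in Tet2KO and 18.7, 22.8 and 23.1 CPM in WT, and was at 25.9, 33.7 and 32.5 CPM in libraries labelled p300KO_Tet2KO, against 49.1, 39.9 and 49.2 CPM in p300KO. The 3 genes were named because their test of the difference had small unadjusted p-values, and by edgeR it did not pass the adjustment (adjusted p = 0.384, 0.384 and 0.396).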

How the results depend on the processing

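The reported counts are 49 protein-coding genes higher, 25 lower and 0 with a difference of effects, given here in that order. They were 219, 165 and 37 by the DESeq2 Wald test and 102, 54 and 2 without a filter. By limma-voom 52 genes were lower. The 6 libraries alone gave 16 higher and 10 lower, and leaving out Tet2KO replicates 1 and 3 together gave 8 and 4. With a replicate block 80 genes were higher and 1 differed in effect. Same-numbered libraries correlated at 0.0298, 0.0301 and 0.0686 in their deviations, and not every library correlated best with its own number. With 3 libraries per group, these values cannot show whether the numbers mark a shared batch. Chosen after seeing the data, a replicate block with a sex covariate gave 31, 10 and 1, the 6 libraries with a sex covariate gave 10 and 10, and autosomal genes outside chromosomes 2, 3 and 4 gave 27 and 10, the last with fewer genes tested. Leaving out single libraries gave 10 to 103 higher, 6 to 51 lower and 0 to 5 differences. The DESeq2 test shared 48 of the 49 and 25 of the 25. Beyond these counts the cause of each shift was not tested. Tet2 in Tet2KO vs WT stayed called under every alternative that kept chromosome 3, at log2 fold changes of -1.77 to -1.33. Counted over single genes, lists and alternatives, 3598 values stayed on their side of the threshold or within the spread, 681 fell short of it, 18 newly passed it, 228 moved and 0 reversed. Fits that leave out chromosome 3 give no value for Tet2 or Rpl34. At an unadjusted p under 0.05, 1644 protein-coding genes passed by edgeR.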
